A study of Mus musculus with 24 samples.

Results

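Oxidative phosphorylation (OXPHOS) genes were followed through spermatogonia of mice at postnatal day 7. They were chosen by gene name: Nduf a, b, c, s or v with a number (complex I), Sdha to Sdhd (complex II), Uqcr (complex III), Cox4 to Cox8 (complex IV) and Atp5 (complex V) in the nucleus, and mt-Nd, mt-Co, mt-Cytb and mt-Atp in the mitochondrial genome, leaving out Cox6a2 and names with -ps. The rule found 90 of 23177 genes in the Zbtb16 expression table (82 nuclear and 8 mitochondrial) and 89 of 21688 in the Sox3 table, where Cox8b was absent. The nuclear genes of the Zbtb16 table comprised 36 of complex I, 4 of complex II, 8 of complex III, 17 of complex IV and 17 of complex V. The mitochondrial genes were mt-Nd1 to mt-Nd6, mt-Cytb and mt-Co1, and the other protein genes of that genome were not analysed here. A name is not always a role: Ndufa4 is now counted with complex IV, and Cox7a2l serves in building supercomplexes.

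Complexes I to IV pass electrons from nutrients to oxygen within the inner mitochondrial membrane, and complex V uses the resulting proton gradient to make ATP. Most subunits are encoded in the nucleus, whereas a small core of complexes I, III, IV and V is encoded and transcribed inside the mitochondrion, and complex II is wholly nuclear. Several complex IV subunits exist as a general form and a form restricted to certain tissues, testis among them, and spermatogonial stem cells are generally held to rely more on glycolysis than their differentiating progeny.

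RNA sequencing was done on testicular cells sorted with magnetic beads into a THY1+ fraction, intended as undifferentiated spermatogonia (uSPG), and a KIT+ fraction, intended as differentiating spermatogonia (dSPG), each library from the pooled testes of 3 mice of the C57BL/6J background. One experiment compared wild-type (WT) mice with Zbtb16 null mice, which are homozygous for the luxoid (lu/lu) allele and so carry it outside the germ line too. The other compared WT mice with mice having a conditional knockout (cKO) of floxed Sox3 by Ddx4 (Vasa)-Cre, which acts in male germ cells and leaves Sox3 in the somatic cells. Each of the 8 groups had 3 libraries, 24 in all.

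The targeted genes followed the genotype labels. Zbtb16 ranged from 42.0 to 58.7 FPKM in WT THY1+ and from 15.6 to 18.2 in null THY1+ libraries, so that the transcript remained, and Sox3 was at most 0.0820 FPKM in cKO and at least 6.28 in the WT libraries of its table. In the Sox3 experiment, Thy1 and Kit went against how the WT libraries were labelled. Those labelled THY1+ had 0.213 to 0.254 FPKM of Thy1 and 45.6 to 80.1 of Kit, and those labelled KIT+ had 3.59 to 4.06 and 12.97 to 18.8. The cKO libraries followed their labels, with 3.61 to 5.26 FPKM of Thy1 in THY1+ and 0.244 to 0.292 in KIT+. The labels were kept, and these groups are called WT labelled THY1+ and WT labelled KIT+. The estimated depth was 25910000 to 35150000 reads per library in the Zbtb16 table, 28220000 to 31840000 for replicate 1 in the Sox3 table and 11030000 to 14940000 for replicates 2 and 3. Both sorted fractions held markers of somatic cells. The summed FPKM of 7 macrophage markers was 762 to 871 in WT THY1+ and 5.74 to 7.25 in WT KIT+ libraries, and that of 7 Leydig cell markers was 83.1 to 119 and 1217 to 2272.

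Levels are fragments per kilobase of transcript scaled to sequencing depth (FPKM), and setting genes beside each other rests on their annotated length. The union of a gene's annotated exons, which can exceed the transcript present, was 6443 bases for Atp5l, 4912 for Atp5g1 and 2181 for Atp5g3. Ranks between genes are therefore approximate. In WT THY1+ cells of the Zbtb16 table the nuclear OXPHOS genes ranged from 0.910 to 261 FPKM in their group mean, with a median of 43.1, and 71 of 82 reached 10 FPKM. The medians by complex lay between 31.3 FPKM for complex V and 57.1 for complex IV. The highest nuclear level was that of Cox6b1, a general complex IV subunit on the outer face of the inner membrane, at 261 ± 45.8 FPKM (SD, n = 3), and the lowest that of Cox8b, the heart and muscle form of subunit VIII. The 8 mitochondrial genes had a median of 648 FPKM, from 3.84 for mt-Nd3 to 4278 for mt-Co1, the catalytic core of complex IV.

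Subunits of 1 enzyme were not at 1 level. Atp5a1 and Atp5b, the alpha and beta subunits of the catalytic head of ATP synthase, stood at 184 ± 5.77 and 180 ± 3.64 FPKM in WT THY1+ cells. The genes for the c subunit of the membrane ring were uneven, with Atp5g3 at 31.3 ± 2.26, Atp5g1 at 1.63 ± 0.256 and Atp5g2 at 1.29 ± 0.419 FPKM (SD, n = 3 each). Reads were allowed at up to 50 positions, so values of such near-identical genes, of members with processed pseudogenes and of mitochondrial genes with nuclear copies are uncertain. The 4 subunits of succinate dehydrogenase, which also serves the tricarboxylic acid cycle, ran from 21.96 ± 0.973 FPKM for the membrane anchor Sdhc to 64.1 ± 4.93 for the flavoprotein Sdha.

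The summed level of the nuclear OXPHOS genes gives a single value per library. It was 4404, 4379 and 5315 FPKM in WT THY1+ and 6056, 5369 and 6278 in WT KIT+ libraries. All WT KIT+ libraries were above all WT THY1+ libraries, though replicate 2 of KIT+ and replicate 3 of THY1+ nearly met. In the null it was 5357, 4897 and 5635 FPKM in THY1+ and 5961, 5171 and 6054 in KIT+ libraries, where the ranges overlapped. In cKO cells it was 4875, 4075 and 4472 FPKM in THY1+ and 6215, 5027 and 5549 in KIT+ libraries, again without overlap.

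**Figure D1:**
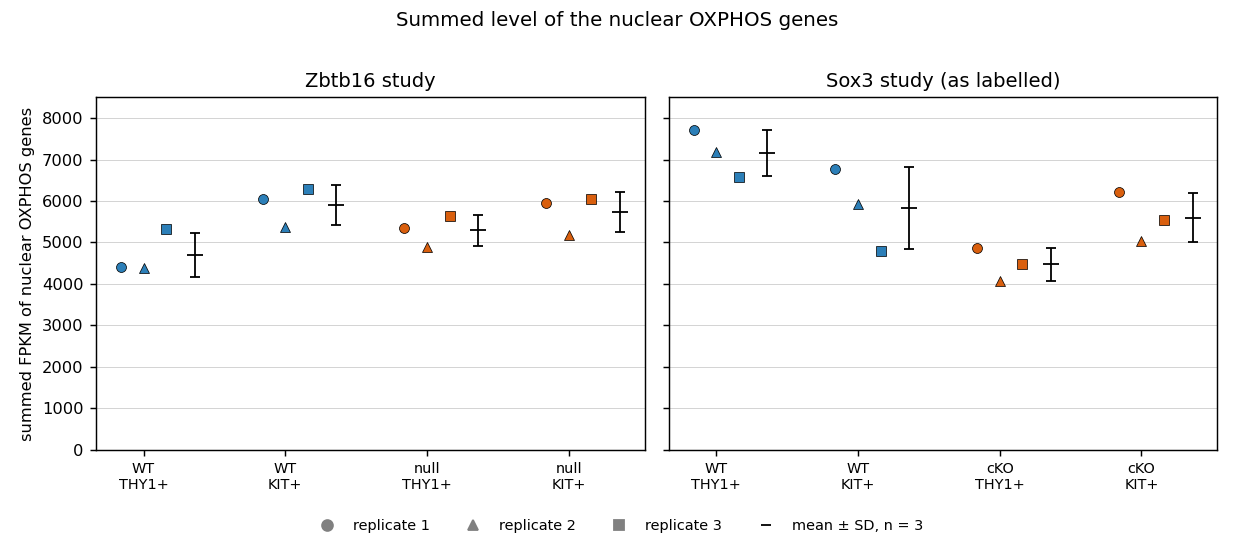
Summed FPKM of the nuclear OXPHOS genes (vertical axis) in each library of the Zbtb16 experiment (left) and the Sox3 experiment (right, groups as labelled), with the mean and SD of 3 libraries beside the points. WT KIT+ libraries sat between 5369 and 6278 and WT THY1+ libraries between 4379 and 5315, and the WT libraries of the Sox3 experiment sat between 6581 and 7713 where labelled THY1+ and between 4791 and 6783 where labelled KIT+, so that these groups overlapped.

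How OXPHOS expression differed between the sorted fractions was asked first in WT. Many complex I and III subunits were higher in KIT+ cells, with Ndufa1 and Ndufa12 of complex I and the core protein Uqcrc2 of complex III among the clearest. A gene was called when limma gave an adjusted p of at most 0.05 and the change was at least 1.5-fold. Of the 82 nuclear members, 11 were called higher in KIT+ and 1 lower, against 7.21% and 14% of the 22374 genes tested (21.2% in both directions). By the adjusted p alone, 35 were higher and 2 lower, against 11.6% and 17.4% of all genes (28.9% in both directions). The difference was above 0 for 75 of 82, and its median was 0.33 on the log2 scale against -0.03 over all genes tested. In bulk samples, fewer cells of a type and less RNA per cell cannot be told apart, and the part of the Leydig cell and macrophage markers, which moved with the fraction, was not tested.

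Ndufa1, an accessory subunit of complex I encoded on the X chromosome, measured 34.6, 31.3 and 42.0 FPKM in WT THY1+ and 79.3, 57.4 and 73.4 in WT KIT+ libraries. Every KIT+ library was above every THY1+ library. The log2 difference was 0.96 (SE 0.17, adjusted p = 0.00131 by limma). Ndufa12, another accessory subunit of complex I, measured 9.48, 9.28 and 12.2 FPKM in THY1+ and 19.3, 15.3 and 21.1 in KIT+ libraries. It too showed no overlap, with a log2 difference of 0.84 (SE 0.15, adjusted p = 0.00143 by limma). Ndufb5, a membrane arm subunit of complex I, measured 23.7, 24.3 and 31.8 FPKM in THY1+ and 42.0, 34.8 and 44.3 in KIT+ libraries, again without overlap, a log2 difference of 0.60 (SE 0.13, adjusted p = 0.00454 by limma).

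These 3 genes were the members called higher in KIT+ cells in WT, null and cKO alike, so the 100 bases before their annotated starts are shown, read 5′ to 3′ on the gene's strand from RefSeq promoters of GRCm38.p6. Their positions are chrX:37191239-37191338 (minus strand) for Ndufa1, chr10:94198935-94199034 (plus strand) for Ndufa12 and chr3:32736963-32737062 (plus strand) for Ndufb5. Capitals would mark a match to CCGGAAG (an ETS motif bound by GABPA), TGCGCA (the core of the NRF1 motif) or AAGATGG (YY1) on either strand, and no match was found in the 3 stretches.
Ndufa1: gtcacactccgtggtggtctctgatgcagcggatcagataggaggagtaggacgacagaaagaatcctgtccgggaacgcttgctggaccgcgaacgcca
Ndufa12: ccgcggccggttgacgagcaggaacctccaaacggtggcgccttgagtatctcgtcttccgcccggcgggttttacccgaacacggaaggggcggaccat
Ndufb5: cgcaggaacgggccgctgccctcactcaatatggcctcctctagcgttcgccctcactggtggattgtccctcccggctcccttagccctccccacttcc
The 3 stretches were rich in G and C, at 58.0%, 65.0% and 65.0%. The 250 bases before the start held 25, 22 and 13 CG pairs, against a median of 14 over the members' windows and 15 over those of expressed genes.

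Complex by complex, 17 of 36 nuclear complex I genes were higher in WT KIT+ cells by the adjusted p, with 1 of 4 of complex II, 5 of 8 of complex III, 5 of 17 of complex IV and 7 of 17 of complex V. The median log2 differences were 0.34, 0.17, 0.45, 0.18 and 0.36 in that order. Uqcrc2 measured 42.8, 39.3 and 49.3 FPKM in THY1+ and 78.4, 63.8 and 78.4 in KIT+ libraries, which did not overlap. Its log2 difference was 0.75 (SE 0.12, adjusted p = 0.000914 by limma). The Rieske iron-sulfur protein Uqcrfs1 was higher by 0.42 (adjusted p = 0.000956 by limma), and Atp5f1, the b subunit of the stator of ATP synthase, by 0.67 (adjusted p = 0.00724 by limma). Sdhb, the iron-sulfur subunit, was the complex II gene that passed, at 0.46 (adjusted p = 0.0293 by limma).

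One core subunit ran the other way. Ndufv1, the flavoprotein at which NADH enters complex I, measured 69.3, 79.6 and 71.3 FPKM in WT THY1+ and 52.4, 63.4 and 57.2 in WT KIT+ libraries. All KIT+ libraries were below all THY1+ libraries, and Ndufv1 fell by 0.35 on the log2 scale (SE 0.10, adjusted p = 0.0202 by limma). Its partner in the same module, Ndufv2, rose by 0.75 (adjusted p = 0.0133 by limma).

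Scaling each library to its FPKM outside the mitochondrial genome lowered the median over all genes to -0.22 and that of the nuclear members to 0.12, and left 3 members called higher and 1 lower. Calls over all genes then split into 930 higher and 4111 lower, in place of 1614 and 3123. The FPKM used for this scaling still held the small RNAs Rn7sk, Rmrp and Rpph1, at 30.7% to 41.9% of summed FPKM in the 12 libraries. Their part was not tested. Without replicate 1 or without replicate 2 of WT THY1+, 7 members were called in place of 12.

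In Zbtb16 null cells the same contrast gave 4 nuclear members called higher in KIT+ and 3 lower, against 13.2% and 16% of all genes (29.2% in both directions). By the adjusted p alone 19 were higher and 5 lower, against 17.4% and 22.1% (39.5% in both directions), and 60 of 82 were above 0 with a median of 0.13 against -0.05 over all genes. Replicate numbers paired these libraries, and with the number as a block 40 members passed in place of 24, against 52.3% of all genes, with the 7 calls unchanged in number. Ndufa1 measured 41.8, 31.8 and 41.7 FPKM in null THY1+ and 81.3, 61.7 and 75.8 in null KIT+ libraries, without overlap, a log2 difference of 0.92 (SE 0.17, adjusted p = 0.00107 by limma). Ndufa12 was higher by 0.81, Ndufb5 by 0.67 and Cox6b2 by 0.69 (adjusted p = 0.00113, 0.00154 and 0.00549 by limma). The members called lower were all of complex IV and are described with its isoforms.

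In Sox3 cKO cells 8 nuclear members were called higher in KIT+ and 0 lower, against 10.5% and 12.2% of the 21212 genes tested (22.7% in both directions). The 8 were 6 of complex I and 2 of complex III. By the adjusted p alone 18 were higher and 1 lower, against 14.3% and 15% (29.3% in both directions). Ndufa1 measured 38.8, 29.0 and 30.7 FPKM in cKO THY1+ and 76.9, 55.3 and 68.1 in cKO KIT+ libraries, and Uqcrc2 40.3, 38.4 and 41.2 against 76.8, 69.0 and 69.7. Neither gene overlapped between the fractions, and the log2 differences were 1.02 and 0.84 (SE 0.18 and 0.14, adjusted p = 0.00119 and 0.000739 by limma). Scaled to FPKM outside the mitochondrial genome the calls became 3 higher and 3 lower, with the median over all genes at -0.17 and that of the members at 0.14, and calls over all genes split into 1563 higher and 2868 lower in place of 2227 and 2582. Without replicate 1 of cKO KIT+ there were 5 calls, 4 higher and 1 lower, and with replicates 2 and 3 alone 4.

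The WT libraries of the Sox3 table gave the opposite sign as labelled. Of 81 nuclear members 1 was called higher and 9 lower in WT labelled KIT+ than in WT labelled THY1+, against 13.1% and 6.53% of all genes (19.7% in both directions). Ndufa1 measured 90.3, 97.9 and 70.1 FPKM in WT labelled THY1+ and 52.4, 48.0 and 38.4 in WT labelled KIT+ libraries. The groups did not overlap, and the libraries with higher Kit were the higher ones for Ndufa1, as in the other 3 contrasts. The log2 difference was -0.89 (SE 0.18, adjusted p = 0.00309 by limma), and that of Ndufa12 was -0.73 (SE 0.16, adjusted p = 0.00534 by limma). The count of 10 calls moved to 3 (2 higher, 1 lower) under the scaling above, with the members at a median of -0.04, all genes at 0.25, and calls over all genes at 3731 higher and 756 lower in place of 2788 and 1385. It moved to 16 without replicate 3 and 4 without replicate 2 of WT labelled THY1+, and to 17 without replicate 1 and 3 without replicate 3 of WT labelled KIT+.

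The WT, null and cKO contrasts of KIT+ against THY1+ share no library, but those of WT and null are not independent. They came from the same fit with a shared estimate of the spread. Same-numbered null and WT libraries also deviated together, with correlations of 0.133 to 0.520. Over the 81 nuclear members in both tables, 58 were above 0 in all 3 and 4 were below 0 in all 3, against 29.4% and 34.4% of the 21037 genes tested in all 3. By the adjusted p, 9 were higher in all 3, against 6.24% of those genes, among them Ndufa1, Ndufa12, Ndufb5 and Ndufs3 of complex I, Uqcrc2 and Uqcr10 of complex III, and Cox6c of complex IV. A further 14 were higher in 2 contrasts and 17 in 1, against 7.39% and 11.1%, while 5 were lower in at least 1 and 0 in all 3, against 29.6% and 9.39%. Ndufs3, a core subunit of the arm that passes electrons to ubiquinone, was higher by 0.49 in WT, 0.45 in the null and 0.61 in cKO on the log2 scale. No nuclear member of complex II or V was among the 9.

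**Figure D2:**
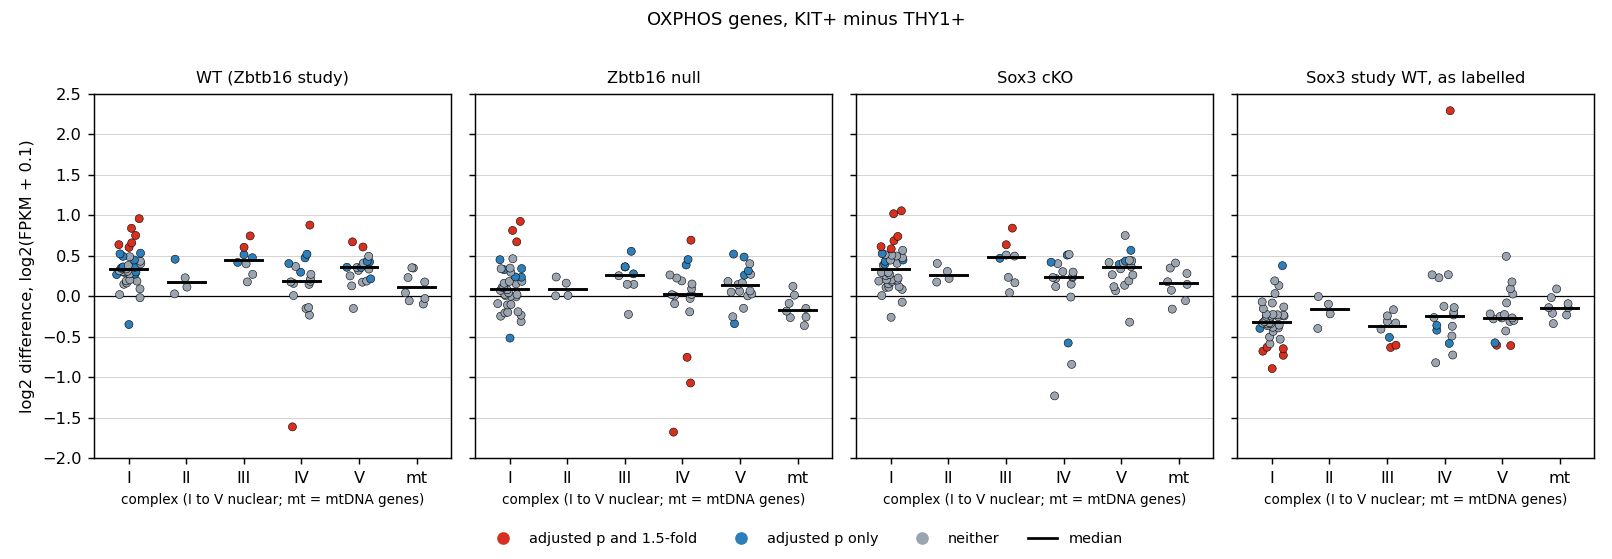
Log2 difference of KIT+ less THY1+ on log2(FPKM + 0.1), 1 point a gene, by complex, for WT, Zbtb16 null, Sox3 cKO and the WT groups of the Sox3 experiment as labelled. Lines are medians, red points passed the adjusted p and 1.5-fold, and blue points the adjusted p alone. Medians for nuclear complexes I and III were 0.34 and 0.45 in WT, 0.09 and 0.27 in the null and 0.34 and 0.48 in cKO, while the WT groups of the Sox3 experiment lay mostly below 0.

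Complex IV held the widest range, from its tissue-restricted isoforms. Cox4i2, the form of subunit IV induced in lung and by low oxygen, was low throughout, at 1.56, 1.18 and 1.17 FPKM in WT THY1+ and 0.490, 0.180 and 0.473 in WT KIT+ libraries. No KIT+ library reached a THY1+ library, and Cox4i2 fell by 1.61 on the log2 scale (SE 0.26, adjusted p = 0.00082 by limma). In null cells it measured 1.08, 1.11 and 1.04 against 0.293, 0.255 and 0.255 FPKM, a log2 difference of -1.68 (adjusted p = 0.000404 by limma). In cKO cells it measured 0.903, 1.38 and 0.908 FPKM in THY1+ and 0.314, 0.429 and 0.429 in KIT+ libraries. These did not overlap, but the log2 difference of -1.23 did not pass the adjusted p. The general form, Cox4i1, stood at 218 ± 11.5 and 252 ± 9.20 FPKM in WT THY1+ and KIT+ cells (SD, n = 3), a log2 difference of 0.21 that did not pass (adjusted p = 0.107 by limma). Macrophage markers moved the same way, at 356 to 669 FPKM in sum in null THY1+ and 5.55 to 14.5 in null KIT+ libraries, and their part was not tested.

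Cox6b2, the testis form of subunit VIb, was higher in KIT+ cells. It measured 3.21, 3.06 and 2.56 FPKM in WT THY1+ and 5.51, 5.95 and 5.01 in WT KIT+ libraries, and 4.037, 3.31 and 3.16 against 7.02, 5.47 and 4.80 in the null. The fractions did not overlap in either genotype, and the log2 differences were 0.88 (SE 0.16, adjusted p = 0.002 by limma) and 0.69 (SE 0.16, adjusted p = 0.00549). In cKO cells the values were 3.03, 3.20 and 1.78 against 6.996, 2.21 and 3.35 FPKM, which overlapped, and the log2 difference of 0.52 did not pass (SE 0.45, adjusted p = 0.418 by limma). The general form, Cox6b1, differed between the fractions by 0.15, 0.09 and 0.15 in WT, null and cKO (adjusted p = 0.575, 0.714 and 0.428 by limma).

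Cox7b2, a paralog of the general subunit VIIb gene Cox7b with expression known mainly from testis, was abundant. In WT cells it measured 58.0, 56.8 and 67.6 FPKM in THY1+ and 59.5, 42.6 and 54.2 in KIT+ libraries, which overlapped, and the log2 difference of -0.23 did not pass (adjusted p = 0.331 by limma). In null cells it measured 84.2, 76.0 and 86.4 FPKM in THY1+ and 48.9, 30.6 and 39.6 in KIT+ libraries. Every null KIT+ library was below every null THY1+ library, and Cox7b2 fell by 1.07 on the log2 scale (SE 0.17, adjusted p = 0.000442 by limma). In cKO cells it measured 63.3, 53.8 and 71.3 against 35.2, 40.9 and 50.7 FPKM and fell by 0.58 (adjusted p = 0.0232 by limma). The WT-to-null difference between these fraction effects, -0.84, did not pass (adjusted p = 0.103 by limma) and was called with the replicate number as a block (adjusted p = 0.0187). Its general counterpart Cox7b stood at 45.4 ± 8.22 and 40.8 ± 6.66 FPKM in WT THY1+ and KIT+ cells.

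Cox8c, the testis form of subunit VIII, was lower in null KIT+ cells too. It measured 2.93, 4.27 and 5.09 FPKM in WT THY1+ and 4.94, 3.58 and 5.33 in WT KIT+ libraries, which overlapped. In null cells it measured 7.31, 5.65 and 9.02 against 4.94, 3.45 and 4.43 FPKM, without overlap, and fell by 0.75 (SE 0.24, adjusted p = 0.0272 by limma). In cKO cells it measured 3.63, 2.48 and 3.01 against 2.53, 1.07 and 1.597 FPKM, which overlapped, and the log2 difference of -0.84 did not pass (SE 0.30, adjusted p = 0.0561 by limma). The general form Cox8a stood at 109 ± 27.2 FPKM in WT THY1+ cells and differed by 0.16, 0.15 and 0.23 between the fractions in WT, null and cKO, none past the test.

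The promoters of the general and restricted forms of subunits VIb and VIIb are shown so that the forms of 1 subunit can be set beside each other. They lie at chr7:30626115-30626214 (minus strand) for Cox6b1, chr7:4753095-4753194 (minus) for Cox6b2, chrX:106015600-106015699 (plus) for Cox7b and chr5:71548206-71548305 (minus) for Cox7b2, in GRCm38.p6. Capitals mark the ETS motif, read on the opposite strand.
Cox6b1: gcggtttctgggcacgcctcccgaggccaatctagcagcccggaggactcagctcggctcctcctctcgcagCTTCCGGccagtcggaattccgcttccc
Cox6b2: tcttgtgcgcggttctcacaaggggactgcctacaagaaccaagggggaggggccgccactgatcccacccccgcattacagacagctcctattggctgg
Cox7b: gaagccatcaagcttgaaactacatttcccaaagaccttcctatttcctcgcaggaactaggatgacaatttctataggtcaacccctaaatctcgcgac
Cox7b2: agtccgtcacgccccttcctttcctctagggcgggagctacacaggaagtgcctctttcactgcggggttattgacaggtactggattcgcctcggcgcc
The ETS match was found in Cox6b1 alone among these stretches. The 250 bases before the start held 14 CG pairs in Cox6b1 and 8 in Cox6b2, and 5 in Cox7b and 9 in Cox7b2.

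**Figure D3:**
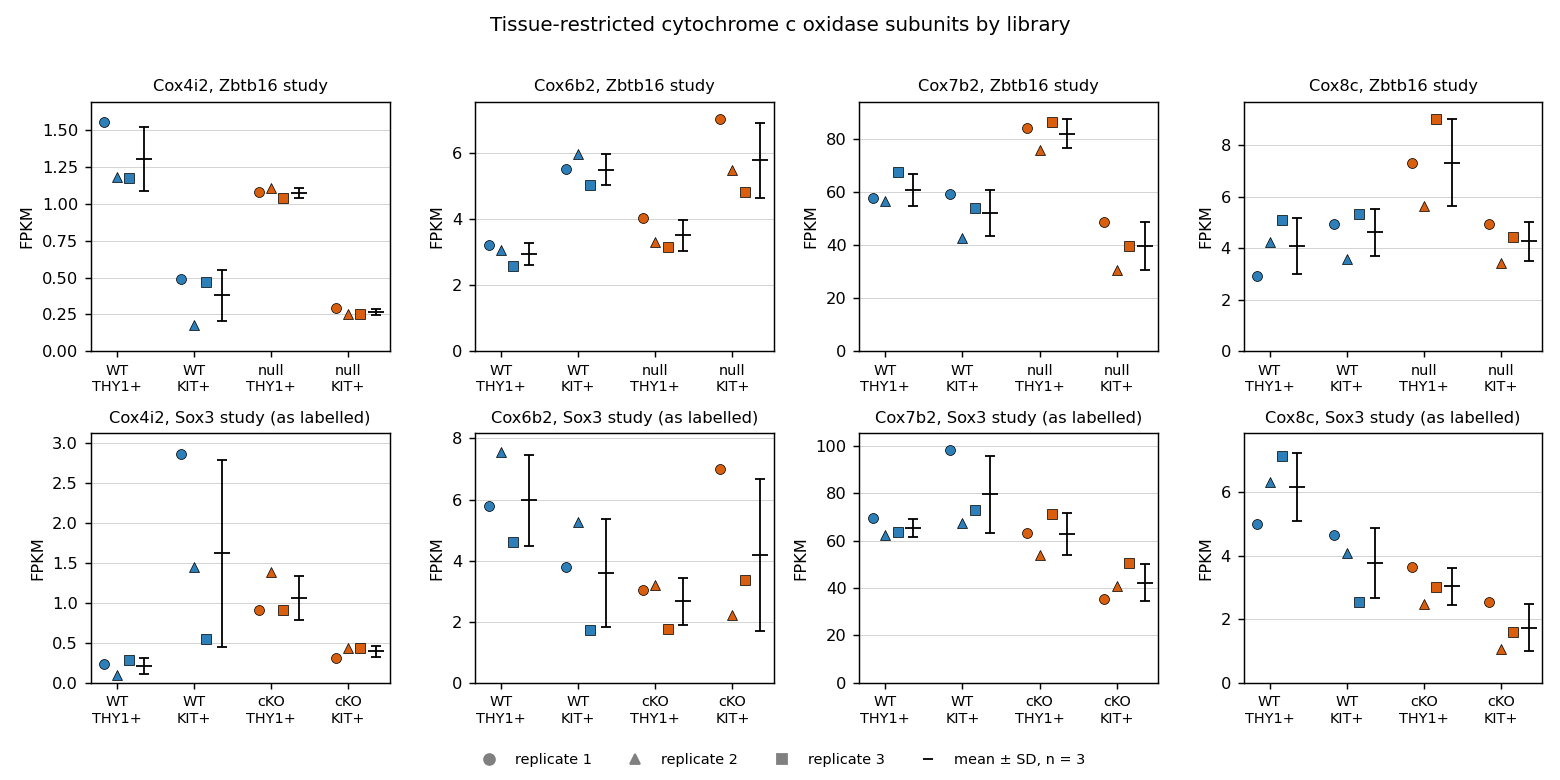
FPKM of 4 tissue-restricted complex IV genes by library in the Zbtb16 experiment (top) and the Sox3 experiment (bottom, as labelled), with mean and SD of 3 libraries. Cox7b2 sat between 76.0 and 86.4 FPKM in null THY1+ and between 30.6 and 48.9 in null KIT+ libraries, and Cox4i2 was below 0.5 FPKM in every KIT+ library of the Zbtb16 experiment.

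How Zbtb16 null differed from WT was asked in the THY1+ fraction, which was intended as uSPG. Nuclear OXPHOS genes had slightly higher values in the null, and how many passed the adjusted p depended on the pairing of libraries, 4 without it and 29 with it. Of 82 members 1 was called, higher, against 2.71% of all genes called higher (3.98% in both directions). By the adjusted p alone 4 were higher and 0 lower, against 3.72% and 1.58% (5.3% in both directions). An unadjusted p of at most 0.05 was reached by 21 of 82 members, a share like that of all genes, 5325 of 22374. The difference was above 0 for 74 of 82, with a median of 0.18 against -0.03 over all genes. The groups did not overlap for 26 members that were higher and 1 that was lower, against 15.5% and 14.1% of all genes. Replicate numbers paired these libraries, and with the number as a block 2 members were called and 29 passed the adjusted p, all higher, against 8.85% and 20.3% of all genes (11% passed as higher). Summed macrophage markers were 356 to 669 FPKM in null THY1+ against 762 to 871 in WT, summed germ cell markers 1056 to 1349 against 927 to 1102, and their part was not tested.

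The call was Atp5g1, one of the 3 genes that encode the same mature c subunit of ATP synthase. It measured 1.43, 1.54 and 1.92 FPKM in WT THY1+ and 2.90, 3.14 and 2.54 in null THY1+ libraries. All null libraries were above all WT libraries, with a log2 difference of 0.78 (SE 0.16, adjusted p = 0.02 by limma). With a pseudocount of 1, with the scaling above, with the 6 libraries fitted alone, or without replicate 1 or 2 of either group, 0 members were called. In KIT+ cells Atp5g1 measured 1.61, 1.96 and 2.04 FPKM in WT and 2.61, 2.32 and 2.21 in the null, a log2 difference of 0.34 that did not pass. Its 100 bases before the start (chr11:96075632-96075731, minus strand, GRCm38.p6) held none of the 3 motifs.
Atp5g1: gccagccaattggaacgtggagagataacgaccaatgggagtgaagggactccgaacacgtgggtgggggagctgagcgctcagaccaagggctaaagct
Of its paralogs, Atp5g3 measured 29.0, 33.5 and 31.5 FPKM in WT THY1+ and 40.4, 43.8 and 36.2 in null THY1+ libraries, without overlap, and the log2 difference of 0.35 did not pass (adjusted p = 0.176 by limma). Atp5g2 ran the other way, at 0.904, 1.74 and 1.23 FPKM in WT THY1+ and 1.13, 0.576 and 1.11 in null THY1+ libraries, which overlapped, and at 1.75, 2.06 and 1.61 against 1.22, 1.21 and 0.683 in KIT+ libraries, which did not. Its log2 differences of -0.43 and -0.78 did not pass (adjusted p = 0.414 and 0.239 by limma).

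Ndufv1, Uqcrfs1 and Cox5a passed by the adjusted p. Ndufv1 measured 69.3, 79.6 and 71.3 FPKM in WT THY1+ and 91.5, 107 and 96.2 in null THY1+ libraries, above without overlap, with a log2 difference of 0.42 (SE 0.10, adjusted p = 0.0335 by limma). Uqcrfs1 measured 32.2, 31.2 and 31.8 against 39.2, 39.0 and 37.7 FPKM, a difference of 0.28 (adjusted p = 0.038 by limma). Cox5a, a general subunit of complex IV, differed by 0.38 (adjusted p = 0.0331 by limma). Under the block Cox8c joined the calls, with 2.93, 4.27 and 5.09 FPKM in WT THY1+ against 7.31, 5.65 and 9.02 in the null and a log2 difference of 0.83 (adjusted p = 0.0183 with the block, 0.0707 without).

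In KIT+ cells 0 members were called between null and WT by limma, against 0.259% of all genes. With the replicate block 4 passed the adjusted p, all higher, against 5.43% of all genes. The difference was above 0 for 37 of 82, with a median of -0.03. Whether the null differed from WT to another extent in KIT+ than in THY1+ was tested as an interaction. It called 0 members, against 0.0313% of all genes. Its value was below 0 for 71 of 82, with a median of -0.21 against 0.00 over all genes. With the replicate number as a block 2 were called, Cox7b2 and Cox8c at -0.84 and -0.94 (adjusted p = 0.0187 and 0.0403 with the block, 0.103 and 0.149 without), against 12.3% of all genes, and 16 passed the adjusted p, all below 0, against 19.3% (8.28% below 0). Without replicate 1 of null KIT+ it called 1. Averaged over both fractions, 0 members were called between null and WT, against 2.3% of all genes. There 4 passed the adjusted p, all higher, against 4.05%: Uqcrfs1 (0.26), Ndufv1 (0.33), Atp5g3 (0.44) and Atp5g1 (0.56). With the block 11 nuclear members were higher and 1 lower, against 7.03% and 5.06%. Without replicate 3 of WT THY1+, WT KIT+ or null THY1+, 1 member was called.

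Mitochondrial genes had lower values in the null, but none was called. In KIT+ cells mt-Nd2, a membrane subunit of complex I, measured 807, 559 and 742 FPKM in WT and 444, 294 and 482 in the null. The null libraries were all below the WT libraries, but the log2 difference of -0.80 (SE 0.44) did not pass (adjusted p = 0.365 by limma). All 8 genes were below 0 in KIT+ cells, with a median of -0.61, and adjusted p-values ran from 0.345 to 0.493. The groups did not overlap for 5 of 8 (mt-Nd2, mt-Nd4, mt-Nd5, mt-Nd6 and mt-Cytb), against 8.77% of all genes that were lower without overlap. The 8 genes are read from 1 genome in each library and are not independent of each other.

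In THY1+ cells 7 of 8 were below 0, with a median of -0.33, and every gene overlapped between null and WT. There mt-Co1 measured 3507, 3429 and 5898 FPKM in WT and 3425, 2993 and 4723 in the null. Replicate 3 was the highest of its group in both, and the same was seen for mt-Nd1, at 2138, 2479 and 5086 against 2359, 1812 and 4074 FPKM. Averaged over both fractions all 8 were below 0, with a median of -0.47, and the smallest unadjusted p was 0.0548, for mt-Nd2. With the replicate block mt-Co1, at -0.30, passed the adjusted p (0.0429 by limma). mt-Nd3 was low in all groups, at 3.84 ± 0.654 FPKM in WT THY1+ cells and 3.87 ± 0.00863 in null THY1+ cells.

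As a share of all FPKM, the 8 genes made up 1.77%, 1.95% and 3.36% in WT THY1+, 1.66%, 1.42% and 2.65% in null THY1+, 2.31%, 2.07% and 2.68% in WT KIT+ and 1.58%, 1.51% and 2.16% in null KIT+ libraries. The null was lower in 6 of 6 pairs of the same fraction and replicate number. The difference in KIT+ cells was -0.601 percentage points (two-sided exact permutation p = 0.2, where 0.1 is the smallest possible), in THY1+ cells -0.449 (exact permutation p = 0.5) and averaged -0.525 (exact permutation p = 0.14, where 0.005 is the smallest possible). Exchanging genotypes only within these pairs, an alternative chosen after seeing the data, the averaged difference had a two-sided exact permutation p of 0.0312, the smallest that 6 pairs allow. It was 0.25, again the smallest possible, over the 3 replicate numbers and within each fraction. The difference itself turned positive in THY1+ cells without replicate 3 of WT, at 0.0508 percentage points. Averaged, the difference was -0.710 points without replicate 3 of null THY1+ (exact permutation p = 0.04). The denominator is itself uneven, since 3 small RNAs, Rn7sk, Rmrp and Rpph1, took 30.7% to 41.9% of summed FPKM in the 12 libraries. Between the fractions 0 of 8 genes passed the adjusted p by limma and 0 had an unadjusted p of at most 0.05, in WT, null and cKO alike. Their share, KIT+ less THY1+, was -0.00536 points in WT (exact permutation p = 1) and -0.158 in the null (exact permutation p = 0.8).

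**Figure D4:**
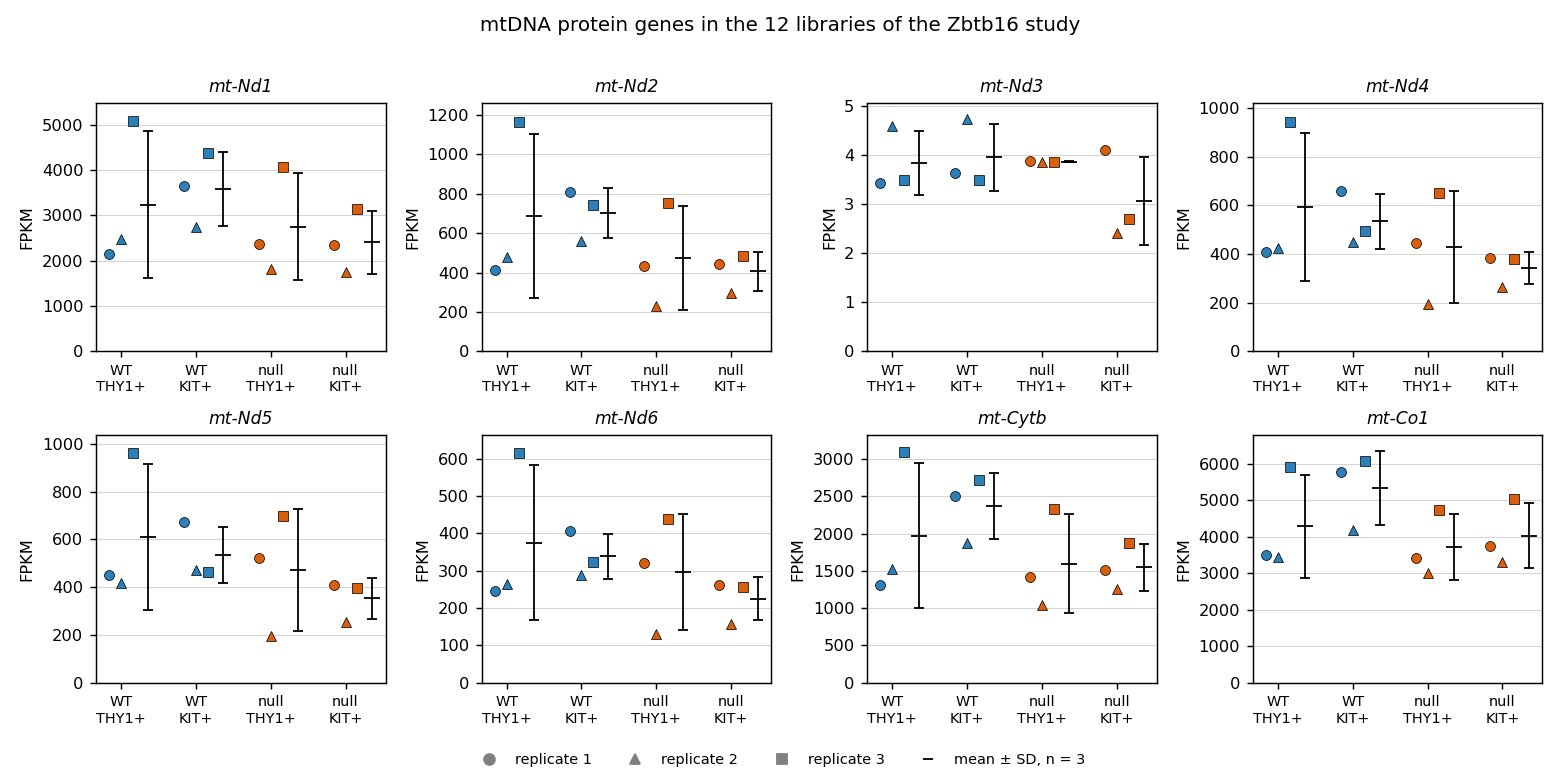
FPKM of the 8 mitochondrial protein genes in the 12 libraries of the Zbtb16 experiment, with mean and SD of 3 libraries per group and a symbol for each replicate number. For mt-Nd2, null KIT+ libraries lay between 294 and 482 and WT KIT+ libraries between 559 and 807, while replicate 3 of THY1+ stood far above the others in both genotypes.

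Loss of Sox3 went with lower nuclear OXPHOS levels. The main value was the difference of cKO from WT averaged over THY1+ and KIT+, since exchanging the WT groups does not alter it. Of 81 nuclear members 9 were called lower and 0 higher in cKO, against 2.83% and 7.49% of the 21212 genes tested (10.3% in both directions). By the adjusted p alone 40 were lower and 0 higher, against 11.6% and 13.1% (24.6% in both directions). The difference was below 0 for 77 of 81, with a median of -0.35 against 0.02 over all genes. By complex, the 40 were 19 of 36 in complex I, 1 of 4 in II, 4 of 8 in III, 8 of 16 in IV and 8 of 17 in V. Summed germ cell markers were 682 to 930 FPKM in cKO KIT+ and 962 to 1116 in cKO THY1+ against 1118 to 1309 in WT, Leydig cell markers reached 4942 in cKO KIT+ against 2005 at most in WT, and their part was not tested.

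The calls lay in all complexes but II. Cox8c had the largest difference among them, -1.06 (SE 0.21, adjusted p = 0.00661 by limma). Cox4i1 measured 366, 306 and 312 FPKM in WT labelled THY1+, 320, 271 and 233 in WT labelled KIT+, 208, 167 and 175 in cKO THY1+ and 235, 200 and 210 in cKO KIT+ libraries. Of the 6 cKO libraries only cKO KIT+ replicate 1 was above the lowest WT library, and the log2 difference was -0.59 (SE 0.10, adjusted p = 0.0036 by limma). Ndufa11, an accessory subunit in the membrane arm of complex I, fell by 0.74, Atp5f1 by 0.60, Uqcr11, the smallest subunit of complex III, by 0.59, and Cox7a2, the general form of subunit VIIa, by 0.64. Atp5e, Ndufs5 and Ndufa2 were the other calls, at -0.69, -0.68 and -0.66, with adjusted p over the 9 from 0.0036 to 0.0343 by limma.

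The number of calls depended on scaling and on single libraries. Scaled to FPKM outside the mitochondrial genome, 1 member was called lower and 16 passed the adjusted p, with a median of -0.14 for the members and 0.22 for all genes, and calls over all genes split into 3136 higher and 193 lower in place of 1588 and 600. That scaling still counts Rn7sk, Rmrp and Rpph1, which took 25.7% to 45.5% of summed FPKM over the libraries of this experiment. Its factors ran from 0.854 to 1.35, against 0.958 to 1.02 with median-ratio scaling. The part of these small RNAs was not tested. With replicates 2 and 3 alone, which were sequenced less deeply, there were 3 calls. Without WT labelled KIT+ replicate 1 there were 4 calls, without WT labelled THY1+ replicate 1 or cKO THY1+ replicate 2 there were 5, and without WT labelled KIT+ replicate 3 there were 14. After a correction for annotated exon length and GC content 6 were called and the median was -0.33. Protein-coding genes whose annotated exons together covered up to 2000 bases, to which many members belong, had a median of -0.17.

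Groups with the same sorting markers could also be set against each other. Between cKO THY1+ and WT labelled KIT+, both high in Thy1, 0 members were called by limma, against 0.0707% of all genes. The difference was below 0 for 80 of 81, with a median of -0.35 against 0.01 over all genes, and 21 were lower without overlap, against 12%. Between cKO KIT+ and WT labelled THY1+, both high in Kit, 11 were called lower and 0 higher, against 4.57% and 12.4% (17% in both directions), and 28 passed the adjusted p as lower, against 9.21%. Cox8c measured 5.01, 6.33 and 7.15 FPKM in WT labelled THY1+ and 2.53, 1.07 and 1.597 in cKO KIT+ libraries. All cKO libraries were below the WT libraries, a log2 difference of -1.84 (SE 0.30, adjusted p = 0.00328 by limma). The 11 calls became 2 under the scaling above, where the members had a median of -0.08, all genes 0.26, and calls over all genes split into 3994 higher and 245 lower in place of 2638 and 970. They became 5 with replicates 2 and 3 alone, 5 without replicate 1, 7 without replicate 2 and 17 without replicate 3 of WT labelled THY1+, and 22 without replicate 1, 5 without replicate 2 and 7 without replicate 3 of cKO KIT+. Both contrasts enter the averaged effect and are not separate evidence for it.

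Compared as labelled, cKO THY1+ against WT labelled THY1+ gave 1 member higher and 46 lower, against 17.8% and 11.3% of all genes (29.1% in both directions), and 1 and 8 under the scaling above, where calls over all genes split into 6705 higher and 840 lower in place of 3768 and 2398 and their median was 0.43. cKO KIT+ against WT labelled KIT+ gave 1 higher and 3 lower, against 12.4% and 12.6% (25.1% in both directions), and 8 in all without WT labelled KIT+ replicate 3. These contrasts set groups with unlike markers against each other, so genotype and fraction cannot be told apart in them.

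**Figure D5:**
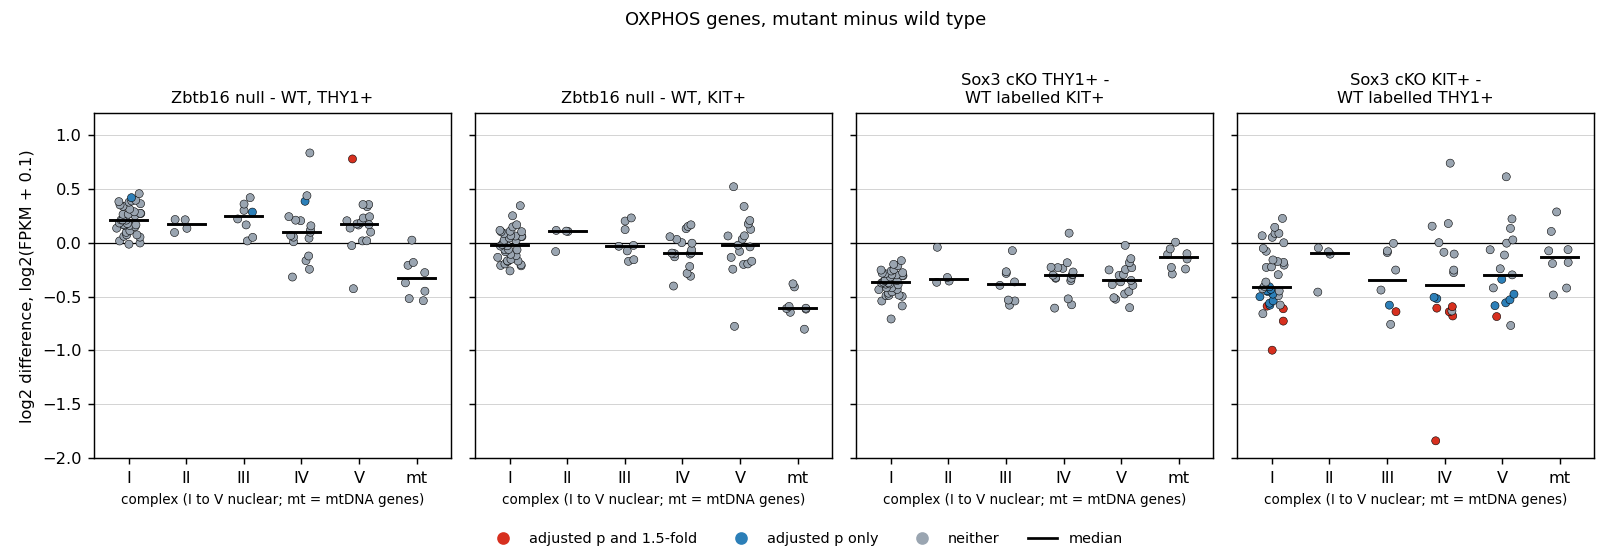
Log2 difference of mutant less WT on log2(FPKM + 0.1), 1 point a gene, by complex and for the mitochondrial genes (mt), in THY1+ and KIT+ cells of the Zbtb16 experiment and in the Sox3 experiment between groups with the same sorting markers. Lines are medians. The mitochondrial median was -0.33 and -0.61 in the Zbtb16 panels, and the nuclear members lay mostly below 0 in the Sox3 panels, with Cox8c lowest at -1.84.

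Of the 8 mitochondrial genes none was called in any contrast of the Sox3 experiment. Averaged over both fractions 6 of 8 were below 0 with a median of -0.12, and 0 passed the adjusted p, while 2 (mt-Nd1 and mt-Cytb) had an unadjusted p of at most 0.05 by limma. Their share of all FPKM was 1.26% to 1.84% over the 12 libraries, and cKO differed from WT by -0.00514 points (exact permutation p = 0.96).

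Genes that build or feed the respiratory chain were taken from lists chosen with earlier results of these data known. Of 77 genes of the mitochondrial ribosome, which translates the mitochondrial subunits, 24 were higher and 0 lower by the adjusted p in WT KIT+ cells (31.2% higher, against 11.6% of all genes). In null KIT+ cells 13 were higher and 12 lower, 16.9% and 15.6% of the list against 17.4% and 22.1% of all genes. In cKO KIT+ cells 18 were higher and 0 lower (23.4% higher, against 14.3%). Mrps28, of its small subunit, was called in all 3, at 0.78, 0.81 and 0.87. In null against WT THY1+ cells 74 of 77 were above 0 with a median of 0.25, but 3 passed the adjusted p as higher, 3.9% of the list against 3.72% of all genes. In the averaged Sox3 effect 1 of 77 was above 0, 41 were lower and 0 higher by the adjusted p (53.2% lower, against 11.6%), and the median was -0.31.

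Of 41 assembly factors 16 were higher and 0 lower by the adjusted p in WT KIT+ cells, 9 and 3 in the null, and 13 and 0 in cKO. Those higher were 39%, 22% and 31.7% of the list, against 11.6%, 17.4% and 14.3% of all genes. Sdhaf1, which inserts iron-sulfur clusters into Sdhb, was called in all 3, at 0.68, 0.87 and 1.04. In null against WT THY1+ cells the complex I assembly factors Ndufaf1 and Ndufaf6 were called higher, at 0.74 and 0.71 (adjusted p = 0.00374 and 0.00864 by limma). Uqcc2, an assembly factor of complex III, was called lower in the averaged Sox3 effect, at -0.65. Of 22 genes that copy or transcribe mitochondrial DNA, 1 was called higher in null against WT THY1+ cells, against 2.71% of all genes. This was Tefm, the elongation factor of the mitochondrial RNA polymerase, at 0.61 (adjusted p = 0.0112 by limma). It measured a mean of 18.6 FPKM there against 12.2 in WT. Between the null fractions 7 of the 22 were lower in KIT+ and 0 higher by the adjusted p. That was 31.8% lower, against 22.1% of all genes, and Tefm was called lower at -0.63. In WT and cKO KIT+ cells 4 and 3 of the 22 were higher and 0 lower, against 11.6% and 14.3% of all genes higher.

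Of 13 genes of the tricarboxylic acid cycle, which supplies NADH and succinate, 6 were higher and 0 lower by the adjusted p in each of WT, null and cKO KIT+ cells, against 11.6%, 17.4% and 14.3% of all genes higher. Suclg2, a subunit of succinyl-CoA ligase, was called at 0.78, 0.97 and 1.05, and Dld, the shared dihydrolipoamide dehydrogenase, at 0.67, 0.66 and 0.74. Among cytochrome c and subunits outside the name rule (8 genes), Cyct, the testis form of cytochrome c, was called lower in null KIT+ and cKO KIT+ cells, at -0.99 and -0.63. Ndufa4l2, a low-oxygen paralog of Ndufa4, was lower in all 3, at -1.64, -0.87 and -1.91. Cyc1, the cytochrome c1 of complex III, was called lower in the averaged Sox3 effect, at -0.59. Of 11 nuclear regulators of respiratory genes, 2 were called higher in the averaged Sox3 effect, against 7.49% of all genes. These were Ppargc1a and Myc, at 0.77 and 0.73, the former from 0.110 FPKM on average. Ppargc1b, a coactivator related to Ppargc1a, was called lower in KIT+ cells of WT, null and cKO, at -1.17, -0.96 and -1.56, from 0.461, 0.307 and 0.599 FPKM on average in THY1+ cells.

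RefSeq promoter windows (250 bases before to 50 after a start, GRCm38.p6) were matched for 66 of 82 nuclear members, 71 windows in all. The ETS motif CCGGAAG was found in 22.5% of them against 16.8% of the windows of expressed genes, the NRF1 core TGCGCA in 25.4% against 13.6%, and the YY1 motif AAGATGG in 14.1% against 6.95%, on both strands. At least 1 of the 3 was found in 50.7% of the members' windows against 32.4%. A match is a description of letters, not of binding.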

How the data were processed

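The authors sorted cells from pooled testes, depleted ribosomal RNA with Ribo-Zero Gold, made stranded TruSeq libraries, sequenced single reads of 50 cycles, aligned them with Novoalign to mm10 and allowed reads at up to 50 positions. The deposited values are FPKM computed by the authors with USeq; the sources used here do not say which strand was counted. Their own test models counts, so limma 3.58.1 (R 4.3.3) was used here on log2(FPKM + 0.1), a scale that understates changes of low genes. Genes with a mean of at least 0.1 FPKM across a table's 12 libraries entered the fit, as all members did, with 4 group means, eBayes with trend and robust settings, and Benjamini-Hochberg adjustment over all genes tested. Tests were two-sided. Depth was estimated from FPKM steps, of which 77% to 80.8% of low values came out whole within 0.02 reads, too few for a count test. The model was tested on simulated data.

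Groups came from the labels, and p-values measure the spread between the pools of mice behind the libraries. Same-numbered libraries deviated together, with every correlation over 0.1, for null against WT (0.133 to 0.520) and the null fractions (0.315 to 0.519), and for cKO THY1+ against WT labelled KIT+ (0.125 to 0.268), so the number was taken as pairing there; no label says what it marks.

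The members and the lists were chosen with earlier results of these data known. Named in any case were the mitochondrial genes, isoforms of complexes IV and V and core subunits, then per comparison and complex the largest call with groups apart and at least 1 FPKM; further names were chosen after their values were seen.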

Additional observations from a re-analysis of the deposited data

How the results depend on the processing

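Alternatives were a pseudocount of 1, no filter, median-ratio scaling, scaling to FPKM outside the mitochondrial genome, the 6 libraries fitted alone, replicates 2 and 3 alone in the Sox3 table, the replicate block, each library left out and, chosen after seeing the data, a correction for annotated exon length and GC content. Of the values for single named genes, 890 kept direction and call, 269 lost the call and 2 reversed: Sdhc (0.0882) and Atp5a1 (0.0495) in cKO against WT as labelled THY1+, under the mitochondrial scaling. The mitochondrial scaling keeps Rn7sk, Rmrp and Rpph1 in its denominator. The causes were not tested.

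Members called by limma moved as follows. In WT KIT+ against THY1+, 12 became 4 with the mitochondrial scaling and 7 to 18 with a library left out. In null against WT THY1+, 1 became 0 with a pseudocount of 1, the mitochondrial scaling or 6 libraries alone, 2 with the replicate block or the length and GC correction, and 0 to 1 with a library left out. The interaction rose from 0 to 2 with the replicate block (Cox8c and Cox7b2) and 0 to 1 with a library left out, as did the averaged Zbtb16 effect. The null fractions gave 6 to 8. In the Sox3 table, cKO fractions went from 8 to 4 with replicates 2 and 3 alone and 5 to 12 with a library left out. WT groups as labelled went from 10 to 3 with the mitochondrial scaling and 3 to 17 with a library left out. The averaged effect went from 9 to 1 with that scaling, to 3 with replicates 2 and 3 alone and 4 to 14 with a library left out. cKO KIT+ against WT labelled THY1+ went from 11 to 2 with the mitochondrial scaling, to 5 with replicates 2 and 3 alone and 5 to 22 with a library left out. As labelled, THY1+ went from 47 to 9 with the mitochondrial scaling and 33 to 51 with a library left out, and KIT+ from 4 to 7 with the length and GC correction and 3 to 8 with a library left out.

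In contrasts where not every same-numbered pair correlated over 0.1, the replicate block also raised the members past the adjusted p. It raised them from 37 to 59 in the WT fractions (against 43.6% of all genes with the block) and 19 to 33 in the cKO fractions (35.5%). The rise was from 17 to 27 between the WT groups of the Sox3 table (30.0%) and 10 to 16 in cKO against WT as labelled KIT+ (39.0%). In the WT fractions the same-numbered correlations ran from 0.070 to 0.381. Each of 12 of 12 libraries correlated best with its own number in the Zbtb16 table and 10 of 12 in the Sox3 table. The block changed no other count of calls by over 1.5 times.

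For the mitochondrial share, in percentage points, p over libraries fell to 0.04 in 1 case, the averaged null effect without replicate 3 of null THY1+ (-0.710). With the replicate block as sign flips within the 6 same-numbered pairs the averaged null effect, -0.525, had an exact permutation p of 0.0312. These pairs share 3 replicate numbers, and with the number as the unit the exact permutation p was 0.25, the smallest possible. A further denominator left out Rn7sk, other genes named as small RNAs and all genes named Gm, but kept Rmrp and Rpph1. With it KIT+ less THY1+ was 0.125 in WT and 0.0790 in cKO. Over all FPKM and with a library left out, KIT+ less THY1+ ran from -0.300 to 0.494 in WT, -0.401 to 0.212 in the null and -0.0952 to 0.132 in cKO. Null less WT ran from -0.819 to 0.0508 in THY1+, -0.808 to -0.440 in KIT+ and -0.710 to -0.275 averaged, and cKO less WT from -0.0635 to 0.0708.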
